A study of Danio rerio with 54 samples.

Results

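The genes described here carry the names of parts of the machinery that builds and supplies a cilium, the antenna-like projection found on most vertebrate cells. They were chosen by a rule on gene names, drawn up with earlier results of these data known. Of the 15245 genes in the count tables, 39 matched. They comprise 12 subunits of the intraflagellar transport complex IFT-B, 3 subunits of IFT-A, 3 genes of the kinesin-2 motors, 8 genes of the Bardet-Biedl syndrome (BBS) group, 5 genes of the ARL family of small GTPases (ADP-ribosylation factor-like proteins) and 8 genes of the transition zone at the base of the cilium. All 39 matched a zebrafish symbol in RefSeq, where arl3 is listed as arl3b and ttc26 as ift56. Of the 39, 37 had at least 5 reads in at least 6 libraries and were tested. The remaining members were ift122, an IFT-A subunit with 16 reads over 48 libraries, and ttc8, a BBSome subunit with 58 reads.

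The outer segment of a rod or cone is a modified primary cilium that holds the discs or membranes where light is captured, and a narrow connecting cilium, which corresponds to the transition zone, joins it to the cell body. IFT trains carry cargo along the microtubules of a cilium. Kinesin-2 moves the trains toward the tip, mainly through IFT-B, and IFT-A takes part in the return with a dynein motor. The BBSome is an adaptor that rides on the trains and moves membrane proteins, and in mammals the loss of its subunits leads to photoreceptor degeneration. ARL6 brings the BBSome to membranes, and ARL3 releases lipid-modified proteins from their carriers inside the cilium.

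The data are 3′mRNA-seq libraries of whole single retinas, 1 library per fish, from adult albino zebrafish of 6 to 9 months, with 6 retinas in each of 9 groups. Naïve fish were kept under the daily cycle of 14 h light and 10 h dark, and the 0 h fish were kept in the dark for 5 days and received no intense light. All other fish had the same 5 days of dark adaptation, then a short exposure to very intense white light, then continuous light of lower intensity for 3 days, a treatment used to destroy rods and cones. Their retinas were taken 24, 36 and 72 h after light onset (hpl), thus within the continuous light, and at 5, 10, 14 and 28 days (dpl), after return to the daily cycle. The lesioned and 0 h fish came from 2 experiments of 3 fish per group, and by the naming of the read files replicates 1 to 3 belong to experiment 1 and replicates 4 to 6 to experiment 2. The naïve libraries are named in another form, which gives an age near the upper end of the 6 to 9 months and places them in neither experiment, so a batch of their own and the group cannot be told apart.

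Total reads per library ranged from 1111503 to 4040445, apart from 1 library at 5 dpl (replicate 2) with 228611 reads (9.06% of the median at 5 dpl without it). The 39 members took between 853 and 12357 of these reads in a library. All 33 listed genes of rod and cone outer segments had reads, and they summed to 84326 to 133681 reads per 1000000 (CPM) at 0 h. Listed genes of the lens, which was removed at dissection, summed to 21.3 to 213 CPM at 0 h, where 1 retina stood apart, and to no more than 39.4 CPM in the groups after light. Listed genes of the retinal pigment epithelium, a neighbouring tissue, ranged from 809 to 6018 CPM over the time-course. Levels in the time-course are CPM on the scaled library size. A gene is said to rise or fall where its adjusted p was under 0.05 over all 13075 genes tested with edgeR. All 7 times share the same 6 retinas at 0 h.

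The first question was which parts of the ciliary machinery moved after the lesion. At 24 hpl, 16 of the 37 tested members (43.2%) had fallen and 0 had risen, beside 17.7% and 19.0% of all genes, and 13 lay below 0 h without overlap of single retinas, beside 7.59% of all genes. At 36 hpl, 16 members (43.2%) had fallen and 0 had risen, beside 23.4% and 23.6% of all genes, and 14 did not overlap, beside 9.09%. At 72 hpl, 15 members (40.5%) had fallen and 3 (8.11%) had risen, beside 20.2% and 22.7% of all genes, and 12 lay below 0 h without overlap, beside 8.44%. With regard to the counts of 0, edgeR gave 1 higher member at an unadjusted p under 0.05 at 24 hpl (kif3cb) and 0 at 36 hpl, DESeq2 called 0 at both times, and limma called kif3cb alone at 24 hpl and 0 at 36 hpl. The median log2 fold change of the members was -0.54, -0.41 and -0.18 at these 3 times, and that of all genes was -0.10, -0.08 and -0.04.

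The fall was spread unevenly over the roles. At 24 hpl, 5 of 5 ARL genes and 6 of 7 BBS genes had fallen, against 3 of 8 transition zone genes, 2 of 14 IFT genes and 0 of 3 kinesin-2 genes. At 36 hpl the counts were again 5 of 5, 6 of 7, 3 of 8, 2 of 14 and 0 of 3. At 72 hpl, 5 of 5 ARL genes, 5 of 7 BBS genes, 3 of 8 transition zone genes and 2 of 14 IFT genes were below 0 h, while 2 other IFT genes and 1 kinesin-2 gene were above it. In all, 14 members were lower at each of the 3 early times, among them arl3, arl3l1, arl3l2, arl13a, arl6, bbs1, bbs4, bbs5, bbs7, cep290, tmem237a, tmem237b and traf3ip1. By contrast, 16 tested members were called at none of the 7 times against 0 h, among them ift20, ift22, ift27, ift52, ift74, ift80, ift81, ttc21b, wdr35, kif3a, kif3b, bbs10, iqcb1, mks1 and rpgrip1l. These include both tested IFT-A genes and 7 of the 12 IFT-B genes. Several of them were thinly covered, as bbs10 with 244 reads over 48 libraries, so that changes may have gone undetected. The 16 refer to both experiments together, and ift80, wdr35 and kif3a were called at some times in single experiments, as given below.

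**Figure D1:**
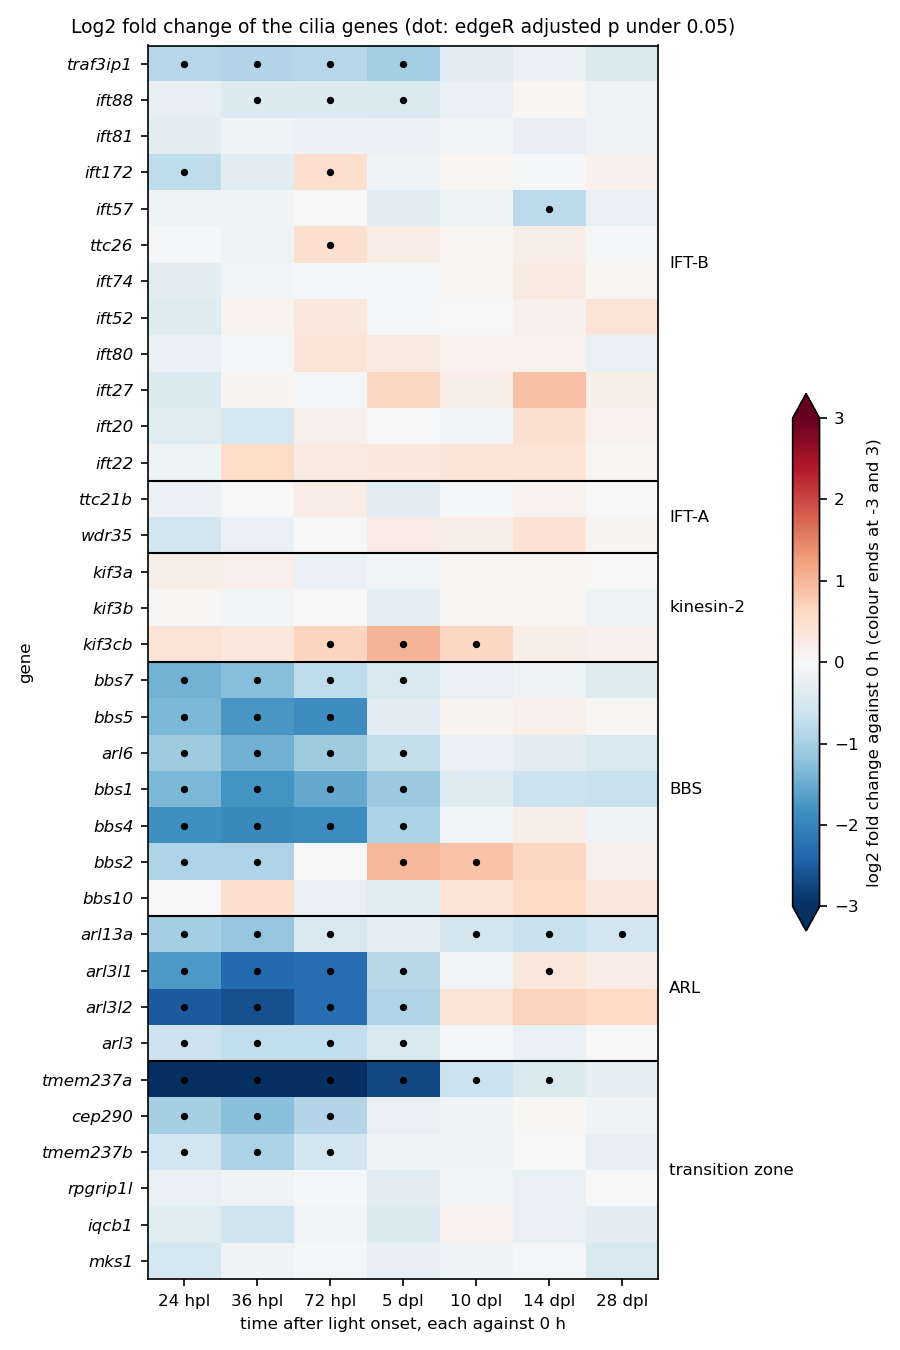
Log2 fold change against 0 h (colour, clipped at -3 and 3) of 34 of the 37 tested members (rows, grouped by role and ordered by level at 0 h) at 7 times after light onset (columns), with a dot where the edgeR adjusted p was under 0.05. The ARL rows, the BBS rows other than bbs2 and bbs10, and tmem237a are blue with dots from 24 to 72 hpl, and most IFT and kinesin-2 rows are pale and have no dot.

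In summed levels the transition zone group was the lowest of the roles relative to its own 0 h level from 24 to 72 hpl. This rank rests on tmem237a and does not describe the group's other genes. Of those, cep290 had the lowest mean relative to 0 h, 41.7% at 36 hpl. Next came tmem237b with 51.8%, also at 36 hpl. Its 8 genes together lay at 2268 to 3304 CPM at 0 h, of which tmem237a alone had 1309 to 2336 CPM, and at 494 to 676 CPM at 36 hpl, where their median was 22.9% of that at 0 h. The 8 BBS genes together lay at 339.8 to 404 CPM at 0 h and at 122 to 165 CPM at 36 hpl, with a median of 34%. The 5 ARL genes together lay at 1635 to 1992 CPM at 0 h and at 435 to 875 CPM at 36 hpl, with a median of 39.5%. The 15 IFT genes together lay at 441 to 551 CPM at 0 h. At 24 hpl they had 337 to 405 CPM and at 36 hpl 365 to 431 CPM. Their sums thus did not overlap with 0 h at these times, although their medians stayed at 73.8% and 82.7%. This separation rests on traf3ip1 and does not describe the other IFT genes together. That gene had 90.9 to 121 CPM at 0 h, 47.4 to 77.1 CPM at 24 hpl and 51.3 to 73.5 CPM at 36 hpl. The 3 kinesin-2 genes lay at 252 to 291 CPM at 0 h and 232 to 372 CPM at 24 hpl, with overlap. Over the same times the listed rod and cone genes fell further, with 31 of 33 called lower at 24 hpl and a summed level of 7624 to 10789 CPM, or 9.35% of the 0 h median. In whole retinas, fewer cells of a type and less RNA per cell cannot be told apart, and the part of photoreceptor loss in the course of the ciliary genes was not tested.

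**Figure D2:**
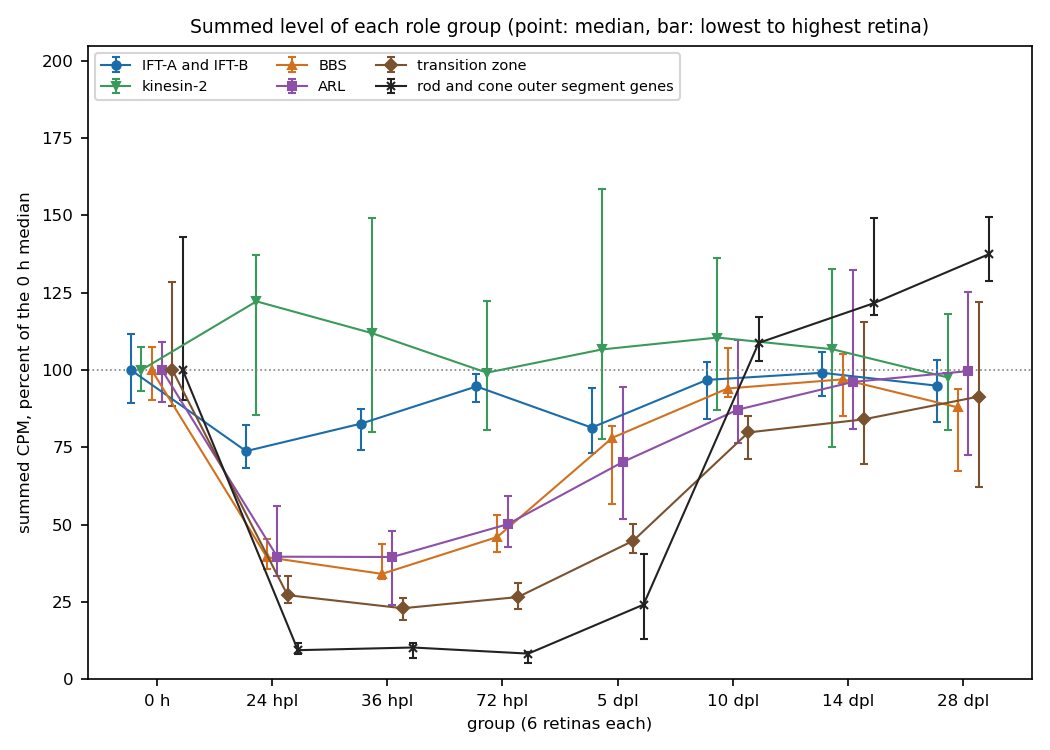
Summed CPM of the genes of each role, and of 33 rod and cone outer segment genes, as a percent of the median at 0 h, with 6 retinas per group (points: medians, bars: lowest to highest retina). At 36 hpl the medians were 22.9% for the transition zone, 34.0% for BBS, 39.5% for ARL, 82.7% for IFT, 112% for kinesin-2 and 10.2% for the rod and cone genes. The transition zone sum includes tmem237a, its largest part at 0 h.

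Among the ARL genes, arl3l1 and arl3l2, both named for their likeness to arl3, fell the most. For arl3l1 the lowest, median and highest retina at 0 h had 360.2, 447 and 486 CPM. At 36 hpl they had 66.4, 87.8 and 103 CPM, without overlap with 0 h, and the level was 5.00-fold lower (log2 fold change -2.32 ± 0.11 (SE), edgeR adjusted p = 4.5e-24). For arl3l2 the 0 h retinas had 167, 192 and 320.4 CPM and the 36 hpl retinas 20, 38.1 and 54.8 CPM, again without overlap (log2 fold change -2.64 ± 0.27 (SE), edgeR adjusted p = 4.1e-12). The gene listed as arl3 had a smaller change, from 110.4, 129 and 161 CPM at 0 h to 64.2, 83.2 and 98.9 CPM at 36 hpl (log2 fold change -0.75 ± 0.13 (SE), edgeR adjusted p = 1.7e-06). How reads that fit more than 1 of these 3 related genes were counted is not given in the sources used here, so the split between them is uncertain.

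Another gene of the ARL family, arl13a, fell as well. The lowest, median and highest retina had 659.7, 792 and 984 CPM at 0 h and 170.1, 390.0 and 549 CPM at 36 hpl, without overlap (log2 fold change -1.15 ± 0.14 (SE), edgeR adjusted p = 6.0e-10). At 72 hpl the arl13a retinas of both experiments together overlapped with those at 0 h. Its call at that time (-0.49, adjusted p = 0.0029) was lost without the experiment term (-0.48, adjusted p = 0.083). Within each experiment the 72 hpl retinas lay below those at 0 h. They had 413 to 577 CPM against 660 to 758 CPM in experiment 1, and 539 to 742 CPM against 826 to 984 CPM in experiment 2.

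Within the BBS group, the subunits bbs1, bbs4, bbs5 and bbs7 and the GTPase gene arl6 fell at all 3 early times. For bbs4 the lowest, median and highest retina had 22.3, 31.4 and 45.7 CPM at 0 h and 6.98, 9.30 and 11 CPM at 24 hpl, a 3.59-fold difference without overlap (log2 fold change -1.85 ± 0.25 (SE), edgeR adjusted p = 1.8e-08). For bbs5 they had 57, 87.3 and 96.6 CPM at 0 h and 16.3, 21.8 and 29.9 CPM at 72 hpl (log2 fold change -1.86 ± 0.16 (SE), edgeR adjusted p = 4.2e-14). The bbs5 low point came at 72 hpl, whereas bbs7 was lowest at 24 hpl, with 41.2, 50.7 and 60.6 CPM against 104, 134 and 168 CPM at 0 h (log2 fold change -1.42 ± 0.14 (SE), edgeR adjusted p = 7.5e-13). For arl6, which recruits the BBSome, the retinas had 46.8, 55.3 and 70 CPM at 0 h and 10.1, 22.6 and 27.5 CPM at 36 hpl (log2 fold change -1.44 ± 0.18 (SE), edgeR adjusted p = 2.7e-09). The thinly read bbs1 had 22.6, 35 and 67.9 CPM at 0 h and 7.84, 10.6 and 15 CPM at 36 hpl (log2 fold change -1.80 ± 0.24 (SE), edgeR adjusted p = 1.6e-08). The exceptions were bbs10, a chaperonin-like gene needed for BBSome assembly in mammals, which was called at no time, and bbs2, whose course differed between the 2 experiments.

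In the transition zone group, tmem237a changed most of all members. It encodes a membrane protein whose human counterpart is mutated in Joubert syndrome. The lowest, median and highest retina had 1309, 1467 and 2336 CPM at 0 h, 79.2, 143 and 175 CPM at 24 hpl and 57.1, 76.5 and 92.9 CPM at 36 hpl. At 72 hpl they had 47.8, 52.9 and 58.7 CPM, which was 30.4-fold below 0 h (log2 fold change -4.93 ± 0.17 (SE), edgeR adjusted p = 1.1e-29). No retina from 24 hpl to 10 dpl reached the lowest 0 h retina. This single gene made up 25.6% to 36.7% of the members' summed CPM at 0 h and 1.77% to 2.38% at 72 hpl. Without it, the members' sum at 36 hpl had a median of 50.9% of that at 0 h, compared with 38.1% with it. Its paralog tmem237b changed less, from 99.3, 154 and 161 CPM at 0 h to 64, 73.5 and 90.2 CPM at 36 hpl (log2 fold change -0.94 ± 0.15 (SE), edgeR adjusted p = 5.0e-07).

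The large transition zone gene cep290, a frequent cause of inherited childhood blindness in people, also fell. It lay at 712, 797 and 875 CPM at 0 h and 274, 319 and 402 CPM at 36 hpl, without overlap (log2 fold change -1.27 ± 0.14 (SE), edgeR adjusted p = 1.2e-10). The other 5 members of the group, among them mks1, iqcb1 and rpgrip1l, were not called from 24 to 72 hpl. For rpgrip1l, a scaffold of the transition zone, the retinas had 32.7, 37.9 and 47.8 CPM at 0 h and 25.5, 35.4 and 48.3 CPM at 36 hpl (log2 fold change -0.10 ± 0.18), with overlap.

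**Figure D3:**
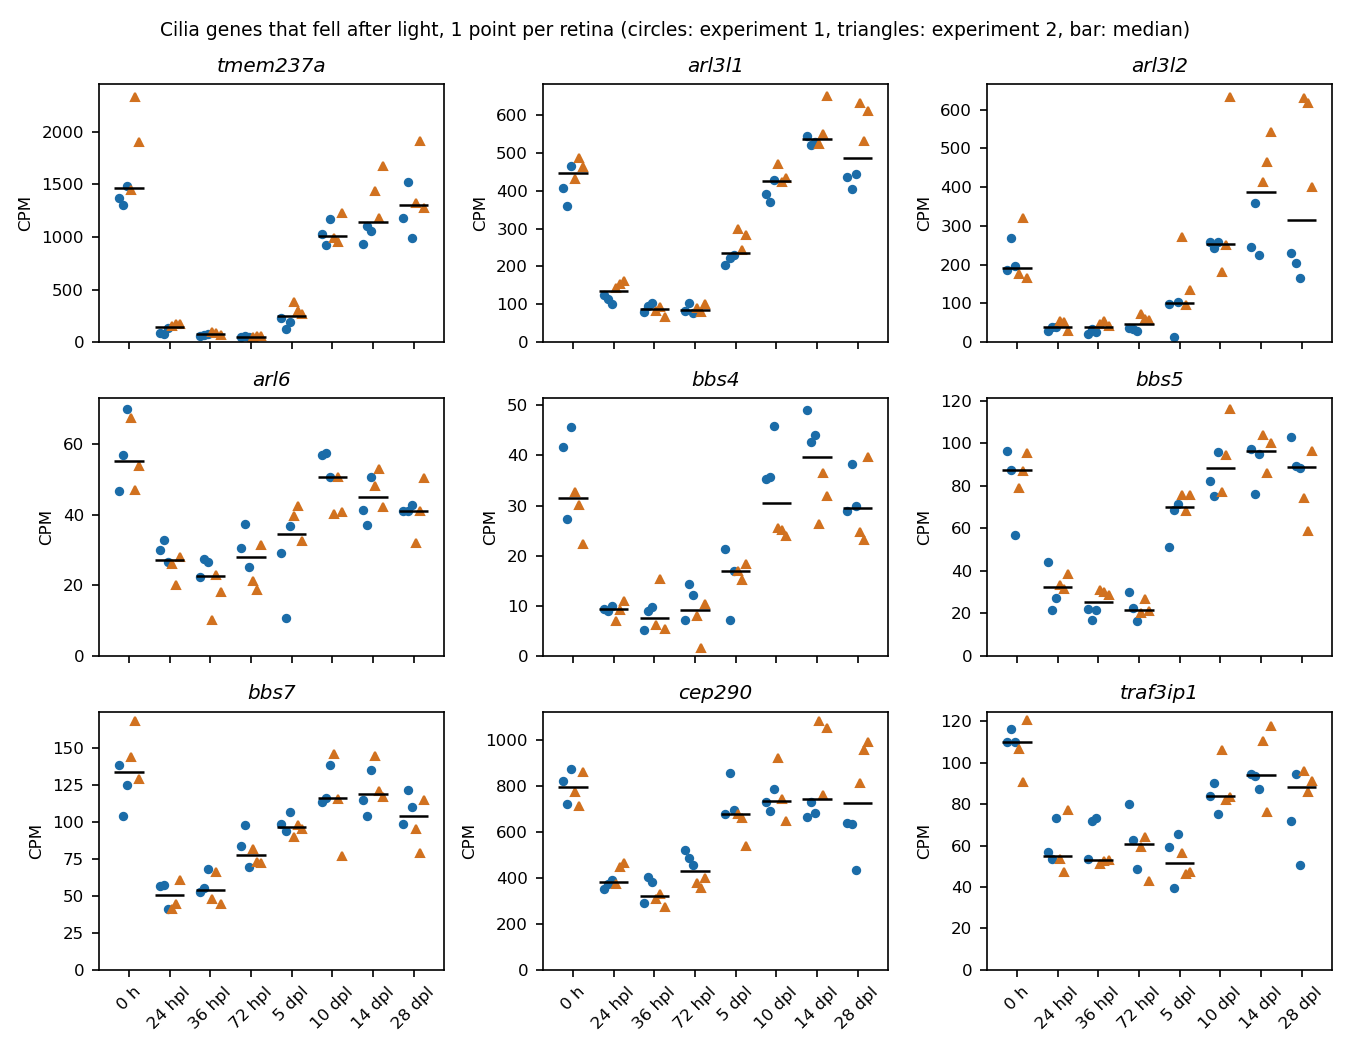
CPM of 9 members that fell after light, 1 point per retina, with 6 retinas in each of 8 groups (circles: experiment 1, triangles: experiment 2, bars: medians; each axis starts at 0). For tmem237a the 72 hpl retinas lie between 47.8 and 58.7 CPM and the 0 h retinas at 1309 to 2336 CPM.

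The IFT genes as a group moved less. The most lasting fall was that of traf3ip1, which encodes the IFT-B subunit IFT54 and was lower at each time from 24 hpl to 5 dpl. Its retinas had 90.9, 110.1 and 121 CPM at 0 h and 47.4, 55.2 and 77.1 CPM at 24 hpl (log2 fold change -0.86 ± 0.15 (SE), edgeR adjusted p = 3.6e-06). It was lowest at 5 dpl, with 39.7, 51.7 and 65.8 CPM (log2 fold change -1.03 ± 0.15 (SE), edgeR adjusted p = 2.7e-07), when most other fallen members were already closer to 0 h.

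A second IFT-B gene, ift172, changed direction. It encodes the largest subunit of the complex. The lowest, median and highest retina had 43.8, 52.7 and 57.4 CPM at 0 h and 24.9, 29.2 and 41.7 CPM at 24 hpl (log2 fold change -0.77 ± 0.16 (SE), edgeR adjusted p = 7.8e-05). At 72 hpl they had 56.6, 74 and 82.7 CPM, above 0 h in the test (log2 fold change 0.47 ± 0.15 (SE), edgeR adjusted p = 0.0094) with overlap of single retinas. At 5 dpl ift172 was lower than at 72 hpl (log2 fold change -0.57 ± 0.15 (SE), edgeR adjusted p = 0.006).

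The core subunit gene ift88, whose loss in mice disrupts outer segments, was called lower at 36 hpl, 72 hpl and 5 dpl. The change was small, with a lowest mean of 74.0% of that at 0 h, at 5 dpl. Its retinas had 42.7, 65.2 and 86 CPM at 0 h and 35, 51.1 and 57.2 CPM at 72 hpl (log2 fold change -0.41 ± 0.14 (SE), edgeR adjusted p = 0.019), and the groups overlapped at every time. The subunit gene ttc26 (IFT56) was above 0 h at 72 hpl, with 33.8, 44.5 and 60.7 CPM against 22.6, 31.2 and 43.2 CPM (log2 fold change 0.48 ± 0.17 (SE), edgeR adjusted p = 0.02), and without 0 h replicate 5 this call was lost (0.38, adjusted p = 0.075). Neither experiment alone gave this ttc26 call. For ift81, which binds tubulin together with ift74, the retinas had 44.5, 55.1 and 69.4 CPM at 0 h and 36.4, 41.5 and 52.6 CPM at 24 hpl (log2 fold change -0.35 ± 0.15, edgeR adjusted p = 0.062). That difference passed the test with DESeq2 (adjusted p = 0.041) and without 5 dpl replicate 2 (adjusted p = 0.046).

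The IFT-A genes were wdr35 (IFT121) and ttc21b (IFT139). The wdr35 retinas had 1.85, 18.5 and 32.7 CPM at 0 h and 6.51, 13 and 17.1 CPM at 24 hpl, and those of ttc21b had 6.49, 22.6 and 26.8 and 10, 18.9 and 21.9 CPM. Neither passed the edgeR test at any time with both experiments together. At 0 h the wdr35 retinas stood apart by experiment, with 25.6, 32.7, 32.7 CPM in experiment 1 and 8.03, 11.3, 1.85 CPM in experiment 2. In experiment 1 alone wdr35 was called lower at 24 and 36 hpl. In experiment 2 alone it was called higher at 5 and 14 dpl.

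The kinesin-2 motor genes kif3a and kif3b encode the paired heavy chains of the ciliary motor. Neither was called at any time with both experiments together. In experiment 1 alone kif3a was called higher at 24 and 36 hpl, and in experiment 2 alone lower at 72 hpl and 5 dpl. The kif3a retinas had 156, 175 and 193 CPM at 0 h and 141, 218 and 239.6 CPM at 24 hpl (log2 fold change 0.19 ± 0.13). The third gene, kif3cb, encodes an alternative partner of KIF3A. Its retinas had 15.7, 37.5 and 55.3 CPM at 0 h and 52.2, 56.7 and 64.6 CPM at 72 hpl (log2 fold change 0.65 ± 0.17 (SE), edgeR adjusted p = 0.0016). It was highest at 5 dpl, with 61.1, 75.9 and 91.6 CPM and no overlap with 0 h (log2 fold change 1.02 ± 0.17 (SE), edgeR adjusted p = 4.8e-06), and was the single member above 0 h at each of 72 hpl, 5 dpl and 10 dpl. With each experiment fitted alone, kif3cb was called higher at 5 dpl in both, at 72 hpl only in experiment 2 and at 10 dpl in neither.

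**Figure D4:**
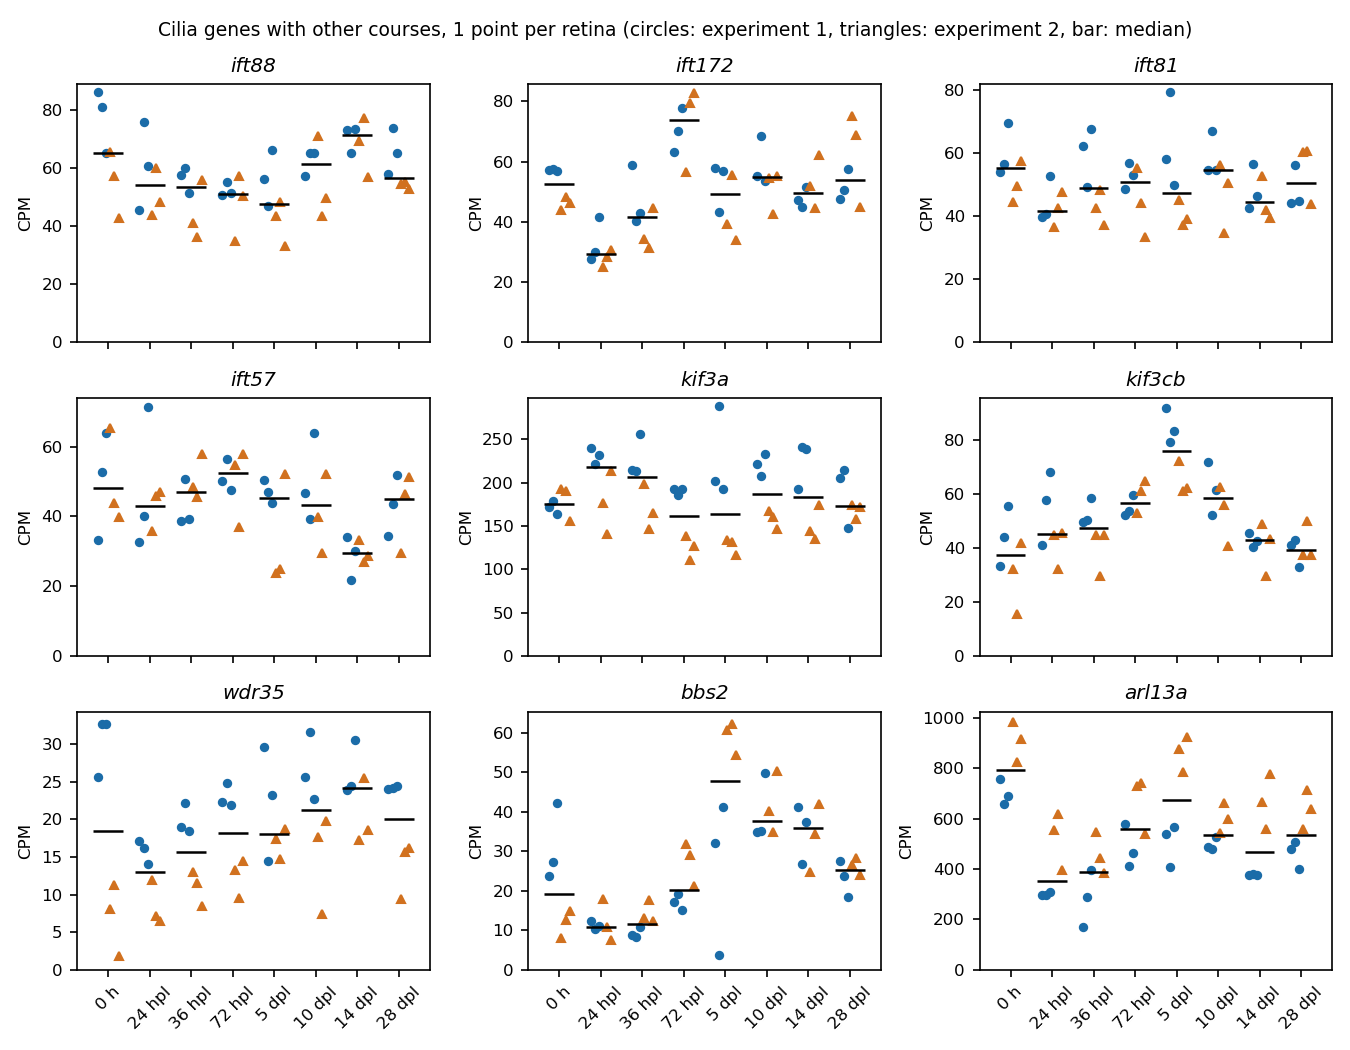
CPM of 9 members with other courses, 1 point per retina, with 6 retinas in each of 8 groups (circles: experiment 1, triangles: experiment 2, bars: medians; each axis starts at 0). The kif3cb retinas at 5 dpl lie between 61.1 and 91.6 CPM, all above the 0 h retinas at 15.7 to 55.3 CPM, and the bbs2 retinas at 0 h split by experiment.

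To place the return of the fallen members in time, the steps from 72 hpl to 5 dpl and from 5 to 10 dpl were compared next. From 72 hpl to 5 dpl, 9 of 37 members (24.3%) rose and 1 (2.7%) fell, beside 6.54% and 6.96% of all genes. From 5 to 10 dpl, 8 members (21.6%) rose and 0 fell, beside 5.75% and 6.81% of all genes. At an unadjusted p under 0.05, 2 members were lower in the second step with edgeR, and DESeq2 and limma called 0 lower. Of the 15 members below 0 h at 72 hpl, 8 rose in the first step (among them arl3l1, arl3l2, bbs4, bbs5, cep290, tmem237a and tmem237b), and arl3l1, bbs5, cep290 and tmem237a rose without overlap, beside 1.95% of all genes. All 8 that rose in the second step were members still below 0 h at 5 dpl (among them arl3, arl3l1, arl3l2, bbs1, bbs4, tmem237a and traf3ip1), and arl3l1, bbs4, tmem237a and traf3ip1 rose without overlap, beside 2.47% of all genes. The members that rose in both steps included arl3l1, arl3l2, bbs4 and tmem237a. Each step shares its starting retinas (72 hpl or 5 dpl) with the comparison of that time against 0 h. Low values in those retinas favour both calls, so the overlap of the 2 sets of calls is partly built in.

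The return came at different times for different members. The bbs5 retinas had 51.3, 70.1 and 76 CPM at 5 dpl, 2.94-fold the level at 72 hpl without overlap (log2 fold change 1.56 ± 0.17 (SE), edgeR adjusted p = 1.7e-10), and already overlapped with 0 h. The cep290 retinas had 539.7, 678 and 855 CPM at 5 dpl, also above all 72 hpl retinas (log2 fold change 0.64 ± 0.14 (SE), edgeR adjusted p = 8.9e-04). The arl3l1 retinas lay between the 72 hpl and 0 h levels at 5 dpl, with 204, 237 and 299 CPM, and reached 369, 426 and 472 CPM at 10 dpl (log2 fold change 0.76 ± 0.11 (SE), edgeR adjusted p = 5.5e-07). The tmem237a retinas had 129.9, 252 and 379 CPM at 5 dpl, 4.65-fold the level at 72 hpl (log2 fold change 2.22 ± 0.16 (SE), edgeR adjusted p = 4.4e-16). At 10 dpl they had 926, 1010.2 and 1229 CPM, a further 4.20-fold (log2 fold change 2.07 ± 0.15 (SE), edgeR adjusted p = 6.1e-16), and were still all below 0 h. The rise of traf3ip1 fell in the second step alone, from 39.7, 51.7 and 65.8 CPM at 5 dpl to 75.1, 83.7 and 106 CPM at 10 dpl (log2 fold change 0.68 ± 0.15 (SE), edgeR adjusted p = 0.001). The listed rod and cone genes rose over the same steps, with 30 of 33 called higher in the first and 28 of 33 in the second.

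At 5 dpl 11 members (29.7%) were below 0 h and 2 (5.41%) above it, beside 14.3% and 17.5% of all genes. Without overlap of single retinas, 5 were lower (arl3l1, arl6, bbs4, tmem237a and traf3ip1) and 1 was higher (kif3cb), beside 3.81% and 3.53% of all genes. At 10 dpl 2 members were lower (arl13a and tmem237a) and 2 were higher (bbs2 and kif3cb), which is 5.41% each, beside 2.85% and 7.06% of all genes, and tmem237a alone did not overlap with 0 h, beside 1.23% lower without overlap over all genes. Without 0 h replicate 5, neither higher call at 10 dpl remained (bbs2 0.68, adjusted p = 0.11, and kif3cb 0.45, adjusted p = 0.064). Experiment 1 alone gave 0 calls at 10 dpl (1 higher and 5 lower at an unadjusted p under 0.05). Experiment 2 alone gave bbs2 as higher and arl13a and tmem237a as lower.

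At 14 dpl 4 members were lower (10.8%) and 1 was higher (2.7%), beside 4.67% and 8.50% of all genes. The lower ones included arl13a (log2 fold change -0.68 ± 0.14 (SE), edgeR adjusted p = 4.6e-04), ift57 and tmem237a. For ift57, the gene of another IFT-B subunit, the retinas had 21.7, 29.4 and 34.1 CPM against 33.2, 48.2 and 65.5 CPM at 0 h (log2 fold change -0.79 ± 0.20 (SE), edgeR adjusted p = 0.0064). They overlapped by a small margin, and ift57 was called at no other time. Without 0 h replicate 5 the call of tmem237a was lost (-0.38, adjusted p = 0.074). The higher one was arl3l1, whose retinas had 521, 537 and 651 CPM, above every 0 h retina as in 2.85% of all genes (log2 fold change 0.34 ± 0.11 (SE), edgeR adjusted p = 0.026), and its call was also lost without 0 h replicate 5 (0.31, adjusted p = 0.053).

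At 28 dpl, 1 member (2.7%) was below 0 h and 0 were above it, beside 3.36% and 4.72% of all genes. This was arl13a, with 401, 535 and 714 CPM against 659.7, 792 and 984 CPM at 0 h (log2 fold change -0.57 ± 0.14 (SE), edgeR adjusted p = 0.0052). With both experiments together its retinas overlapped with those at 0 h, and its call was lost without the experiment term (-0.56, adjusted p = 0.16). The level of arl13a differed between the experiments (0.58 on the log2 scale, edgeR adjusted p = 8.5e-10). In experiment 1 the 28 dpl retinas had 401 to 509 CPM against 660 to 758 CPM at 0 h. In experiment 2 they had 561 to 714 CPM against 826 to 984 CPM, so the groups did not overlap within either experiment. Of the higher members, 1 had an unadjusted p under 0.05 with edgeR (arl3l2), and DESeq2 and limma called 0. The count of lower members at 28 dpl was sensitive to the method, with 6 by DESeq2, 4 without 5 dpl replicate 2 and 3 without 0 h replicate 5. The median log2 fold change of the members was -0.02 at 28 dpl, and tmem237a lay at 988, 1302 and 1916 CPM (-0.26 on the log2 scale, not called).

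The 2 experiments were compared for each member, since 7070 of 13075 genes and 19 of 37 members differed in level between them. In experiment 1 alone, 18, 17 and 15 members were lower and 1, 2 and 0 higher at 24, 36 and 72 hpl. In experiment 2 alone, 14, 14 and 15 were lower and 0, 0 and 4 higher. Over all genes, these fits called 3373, 4033 and 4209 in either direction in experiment 1 and 3416, 4963 and 4278 in experiment 2. Shares of all genes by direction were not computed for single experiments. At 5 dpl, 7 were lower and 1 higher in experiment 1, and 8 were lower and 3 higher in experiment 2. Over all genes, 2070 and 3377 were called at that time in either direction. At 28 dpl, edgeR called 0 members in experiment 1 (0 higher and 6 lower at an unadjusted p under 0.05), and in experiment 2 it called arl3l2 and bbs2 higher and 0 lower (4 at an unadjusted p under 0.05), so the pooled arl13a call was made in neither. At 72 hpl tmem237a changed by -4.74 (log2) in experiment 1 and by -5.14 in experiment 2. At 36 hpl arl3l1 changed by -2.16 and -2.50. These members thus fell to a like degree in both.

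An exception was bbs2, a BBSome subunit. At 0 h the 3 retinas of experiment 1 had 23.6, 27.4, 42.3 CPM and the 3 of experiment 2 had 8.03, 12.5, 14.8 CPM. At 36 hpl they had 8.83, 8.28, 10.8 CPM and 13.2, 17.6, 12.2 CPM. The experiments were apart at 0 h and close together at 36 hpl, so experiment 1 gave a log2 fold change of -1.74 and experiment 2 one of 0.32 (edgeR interaction, adjusted p = 0.026). At 5 dpl it was -0.02 and 2.35 (adjusted p = 0.0039). The pooled bbs2 calls, a fall at 24 and 36 hpl and a rise at 5 and 10 dpl, therefore did not hold within each experiment, and limma lost those at 24 hpl (adjusted p = 0.062) and 36 hpl (adjusted p = 0.054). The motor gene kif3a also differed at 5 dpl, with 0.34 in experiment 1 and -0.50 in experiment 2 (edgeR interaction, adjusted p = 0.049). For wdr35 and ift80 the interaction was not called at any time, yet single experiments gave calls in opposite directions. At 5 dpl wdr35 changed by -0.33 and 1.18 (edgeR interaction, adjusted p = 0.090). The ift80 gene was called lower at 24 and 36 hpl in experiment 1 alone and higher at 72 hpl in experiment 2 alone.

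A wider list of 35 tested ciliary genes outside the name rule gave a mixed picture at 24 hpl. Of these, 6 were higher and 9 lower, beside 19.0% and 17.7% of all genes. Among the lower ones were pde6d, which carries prenylated proteins (-1.59 ± 0.18, adjusted p = 1.8e-10), unc119b, which carries myristoylated proteins (-1.25 ± 0.16, adjusted p = 3.8e-09), and rp2, which acts on ARL3 (-1.91 ± 0.32, adjusted p = 2.6e-06), all by edgeR. Of their relatives on the list, unc119.1 (-0.32 ± 0.55, adjusted p = 0.69) and arl2bp (-0.73 ± 0.64, adjusted p = 0.4) were not called, and arl2 was higher (0.73 ± 0.23, adjusted p = 0.0091). The small GTPase gene rab28, linked to cone disease in people, was lower as well (-1.11 ± 0.16, adjusted p = 3.9e-08). Among the higher ones were hspb11 (3.18 ± 0.72, adjusted p = 3.8e-04) and tmem107 (1.61 ± 0.47, adjusted p = 0.005), both by edgeR. Whether the zebrafish gene named hspb11 is a ciliary gene was not checked here, and the count of 6 includes it. At 72 hpl tmem107 was again higher (2.27 ± 0.46, adjusted p = 4.6e-05) and hspb11 was not called (-0.98 ± 0.87, adjusted p = 0.38). Also higher at 24 hpl were rab8a (0.73 ± 0.21, adjusted p = 0.0053) and the kinesin-2 accessory genes kifap3a (0.42 ± 0.15, adjusted p = 0.026) and kifap3b (0.33 ± 0.12, adjusted p = 0.023). The dynein-2 heavy chain gene dync2h1, the motor of the return path, was lower (-1.02 ± 0.29, adjusted p = 0.0034). At 28 dpl, 2 of the 35 were above 0 h, kifap3b (0.75 ± 0.12, adjusted p = 6.9e-06) and tmem107 (1.51 ± 0.48, adjusted p = 0.038), and 0 were below it. Over all genes, 4.72% were above and 3.36% below.

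Other cell types moved at the same times, and their part in the members' levels was not tested. Of 14 tested cell cycle genes, 14 were higher at 72 hpl, and the 15 listed genes with reads summed to 226 to 317 CPM at 0 h and 1646 to 2209 CPM at 72 hpl. Of 12 microglia and macrophage genes, 9 were higher at 24 hpl, with sums of 74.1 to 115 CPM at 0 h and 293 to 481 CPM. The 11 Müller glia genes summed to 2943 to 4584 CPM at 0 h and 11163 to 16152 CPM at 72 hpl, when 4 were higher and 1 lower. Some other lists were also lower at 36 hpl. Of 6 horizontal cell genes, 4 were lower and 0 higher at 36 hpl, with sums of 625 to 827 CPM at 0 h and 332 to 454 CPM at 36 hpl, a median of 51.7%. Of 10 bipolar cell genes, 4 were lower and 0 higher at 36 hpl, with sums of 1782 to 2056 and 1306 to 1713 CPM, a median of 80.4%. Of 14 amacrine and ganglion cell genes, 9 were lower and 2 higher at 36 hpl, at a median sum of 91.9%. At 24 hpl the median sums of the horizontal, bipolar, and amacrine and ganglion lists were 65.3%, 110% and 110%. At 72 hpl they were 116%, 87.0% and 96.9%. Those of all members were 41.4% and 45.3% at these 2 times, and 53.9% and 61.4% without tmem237a. Of 15 tested motile cilia genes, 1 was lower at 24 hpl, and 4 were higher and 1 was lower at 72 hpl. The 17 listed motile cilia genes with reads summed to 59.6 to 111 CPM at 0 h, 40.3 to 126 CPM at 24 hpl and 82.7 to 149 CPM at 72 hpl.

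The last question was how far 28 dpl and 0 h retinas differed from naïve ones. These values are pseudo-counts, counts that the authors scaled toward a common library size, and both comparisons share the 6 naïve retinas. At 28 dpl, 11 of 37 members (29.7%) were above naïve and 5 (13.5%) below, beside 19.7% and 17.6% of 11700 genes tested with limma, and 4 lay above and 1 below every naïve retina, beside 6.55% and 8.22% of all genes. At 0 h, 13 members (35.1%) were above naïve and 6 (16.2%) below, beside 26.5% and 26.9% of all genes, and 6 lay above and 2 below every naïve retina, beside 11.2% and 13.8%. The 3 genes of kinesin-2 were all higher at 28 dpl, and kif3a and kif3b were higher at 0 h. Of 7 BBS genes, 4 were higher and 2 lower in each comparison.

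Naïve retinas lay below every retina of both other groups for ift81, arl6 and bbs7. For ift81 the lowest, median and highest pseudo-counts were 27.5, 35.2 and 62.1 in naïve retinas, 83.6, 106 and 131 at 0 h and 84.6, 97 and 115 at 28 dpl. The log2 fold change was 1.33 ± 0.19 at 28 dpl (limma adjusted p = 2.2e-05) and 1.42 ± 0.19 at 0 h (adjusted p = 2.1e-06). For arl6 the pseudo-counts were 26.6, 35.4 and 52.3 in naïve retinas, 89.1, 106 and 132 at 0 h and 61, 78.5 and 97.3 at 28 dpl. It was 2.14-fold the naïve level at 28 dpl (adjusted p = 1.1e-04) and 2.90-fold at 0 h (adjusted p = 5.4e-07), by limma. For bbs7 they were 92.5, 112 and 124, 199.5, 258 and 318 and 151, 202 and 231 (log2 fold change 0.85 ± 0.14 (SE), limma adjusted p = 8.7e-05 at 28 dpl). These 3 calls held with the retinas of either experiment alone.

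The traf3ip1 retinas had 79, 99.8 and 166 pseudo-counts in naïve, 172, 210.1 and 232 at 0 h and 99.2, 169 and 184 at 28 dpl. The 0 h group did not overlap with the naïve one (log2 fold change 0.96 ± 0.18 (SE), limma adjusted p = 8.6e-05), and the 28 dpl group overlapped with it and was called higher as well (log2 fold change 0.53 ± 0.18 (SE), limma adjusted p = 0.02). The scaffold gene rpgrip1l had 22.9, 47.6 and 50.3 pseudo-counts in naïve and 46.4, 74.1 and 97.3 at 28 dpl (log2 fold change 0.77 ± 0.21 (SE), limma adjusted p = 0.0056). The same call was lost with the 28 dpl retinas of experiment 2 alone (0.74, adjusted p = 0.092).

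Other members stood highest in naïve retinas. For arl3l1 the lowest, median and highest pseudo-counts were 1197, 1366 and 1411 in naïve retinas, 690.1, 842 and 919 at 0 h and 769.9, 938 and 1204 at 28 dpl. All 0 h retinas were below the naïve ones (log2 fold change -0.69 ± 0.12 (SE), limma adjusted p = 4.9e-05), and the 28 dpl group was called lower (log2 fold change -0.46 ± 0.12 (SE), limma adjusted p = 0.0043) but not with experiment 2 alone (-0.24, adjusted p = 0.18). The arl3l2 pseudo-counts were 768, 946 and 1219 in naïve retinas, 322, 366 and 606 at 0 h, where no retina reached the naïve ones (log2 fold change -1.26 ± 0.26 (SE), limma adjusted p = 3.3e-04), and 323, 608 and 1201 at 28 dpl. At 28 dpl the arl3l2 retinas of the 2 experiments stood apart and the pooled difference was not called (-0.63 ± 0.26).

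The bbs2 retinas had 67.6, 84.7 and 109 pseudo-counts in naïve, 15.4, 37.5 and 79.6 at 0 h and 35.7, 48.5 and 53.8 at 28 dpl, with every 28 dpl retina below every naïve one (log2 fold change -0.84 ± 0.27 (SE), limma adjusted p = 0.019). For tmem237a they had 2758, 3552 and 4294, 2508, 2759.6 and 4419 and 1929.6, 2496 and 3640.0, with overlap (log2 fold change -0.43 ± 0.16 (SE), limma adjusted p = 0.043). The tmem237a call was lost with experiment 2 alone (-0.29, adjusted p = 0.3).

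**Figure D5:**
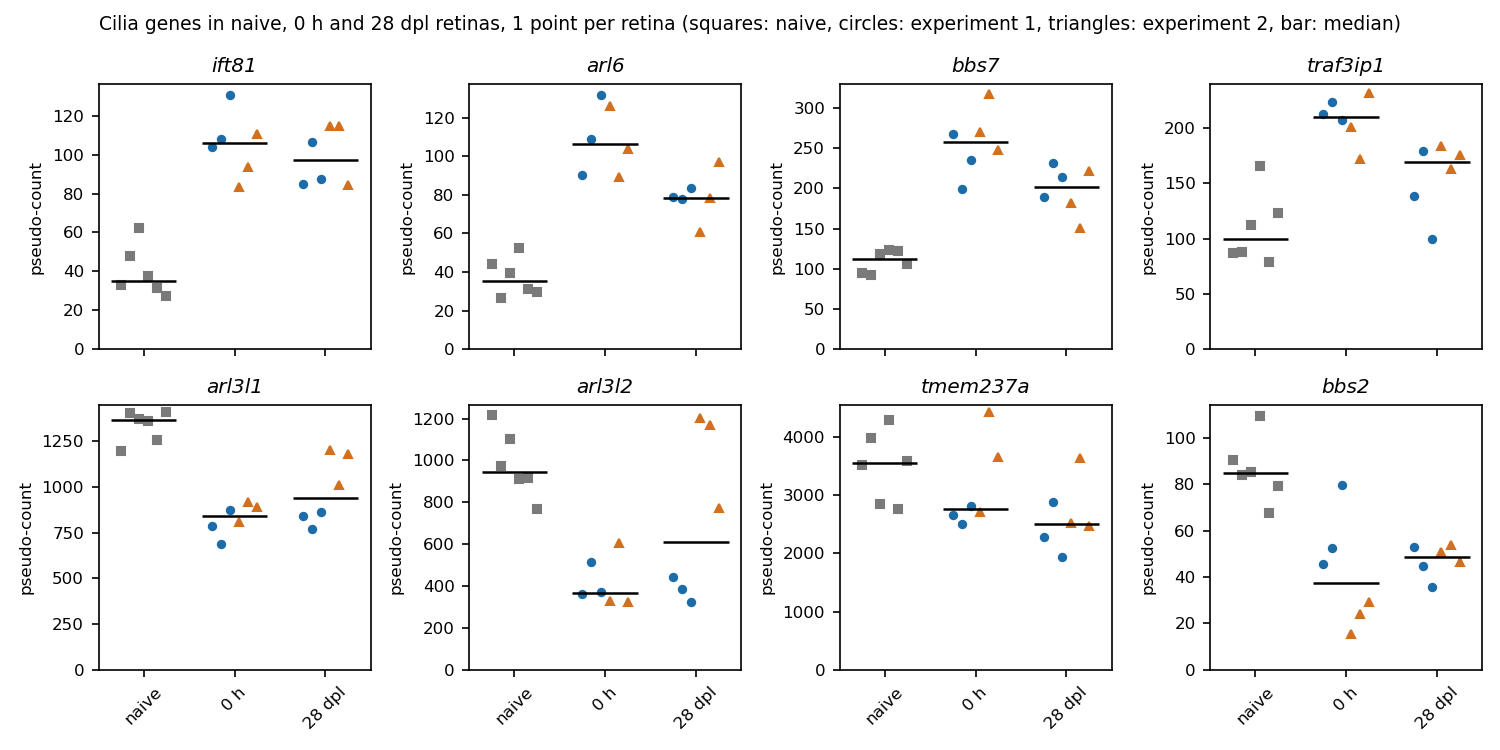
Pseudo-counts of 8 members in naïve, 0 h and 28 dpl retinas, 1 point per retina, 6 retinas per group (squares: naïve, circles: experiment 1, triangles: experiment 2, bars: medians; each axis starts at 0). The naïve ift81 retinas lie between 27.5 and 62.1, below all 0 h and 28 dpl retinas, and the naïve arl3l1 retinas lie between 1197 and 1411, above all 0 h retinas.

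Other lists differed from naïve as well. Of 33 rod and cone genes, 15 were lower and 3 higher at 28 dpl and 21 lower and 4 higher at 0 h, with summed pseudo-counts of 301933 to 357419 in naïve retinas, 158987 to 252920.0 at 0 h and 231759 to 272939 at 28 dpl. Of 10 tested motile cilia genes, 8 were higher at 28 dpl and 10 at 0 h, at low sums over 17 genes of 32 to 53.8, 114 to 209 and 75.2 to 144. The Rfx factors, which are known to control ciliary genes, were above naïve in 3 of 4 cases at 28 dpl and 4 of 4 at 0 h. Over all genes, 19.7% and 26.5% were above naïve. These shares are no fair measure for the motile cilia and Rfx lists. Genes so low in naïve retinas could pass the filter on low values mainly through the 0 h and 28 dpl retinas. The filter thus favoured calls above naïve in these lists, and no conclusion is drawn from their counts of calls. The sums cover all listed genes and do not depend on the filter. The 4 Rfx genes had low sums, 9.87 to 20.2 pseudo-counts in naïve retinas, 41.1 to 90.2 at 0 h and 30.8 to 53.9 at 28 dpl. In the time-course, rfx3 (-1.33, edgeR adjusted p = 0.028) and rfx4 (-1.68, adjusted p = 0.043) were lower at 24 hpl. At 72 hpl rfx4 was lower (-1.79, adjusted p = 0.027) and rfx2 higher (1.02, adjusted p = 0.0064). The naïve state and a batch of the naïve libraries cannot be told apart.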

How the data were processed

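Total RNA of single retinas was made into 3′mRNA-seq libraries (Lexogen QuantSeq FWD), 54 in all. The authors aligned the reads to zebrafish build dR10 and counted them per gene, and their processing notes name STAR, HTSeq and edgeR. Versions, the handling of reads that fit several genes and the strand setting are not given in the sources used here. The deposited pairwise tables hold raw read counts of the 48 time-course libraries, and a further deposited table holds a signal per gene, edgeR pseudo-counts scaled by the authors toward a common library size, for all 54. Total pseudo-counts were 2497761 to 2707270 in naïve retinas, 1722570 to 2258728 at 0 h and 1901193 to 2216505 at 28 dpl. The tables also hold the authors' fold changes, p-values and related columns, which were not used. Of 15245 genes, 296 had no read, and 12 date entries of the pseudo-count table were left out. No 2 libraries were identical.

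Counts were tested with edgeR 4.0.16 in R 4.3.3 (TMM scaling, quasi-likelihood F test, two-sided, terms for group and experiment, 48 libraries), on the 13075 genes that reached 5 reads in 6 or more libraries. Pseudo-counts were tested with limma 3.58.1 (trend, log2 of the value plus 1, which understates changes of low genes, 18 libraries, group only), on the 11700 genes that reached a value of 5 in 6 or more libraries. P-values were adjusted by Benjamini-Hochberg over all genes tested, and calls were made at 0.05. CPM are reads per 1000000 on the TMM-scaled library size. Alternatives were DESeq2 1.42.0, upper-quartile scaling, no filter, no experiment term, a replicate block, single libraries left out, and others named in the closing section. The fits were tested on simulated data.

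The members, roles and other gene lists were chosen with earlier results of these data known. Values are given for the 2 members of each role with the highest mean CPM at 0 h, for up to 3 called members with the largest and smallest fold change in each time-course comparison, for up to 4 called members per direction with the smallest adjusted p against naïve, and for paralogs. Of the tested members, 3 enter the counts and sums but are not reported here by name. No adjusted p over the list alone and no set test was computed. Sequences and coordinates of the members are not analysed here.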

Additional observations from a re-analysis of the deposited data

Results flagged for a closer look

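In 252 groups of 6 retinas, 1 per group for each of the 28 members named by the rule, 13 had a highest or lowest retina that stood apart from the others by Dixon's test at 95%, where chance gives about 1 in 20 (12.6 of 252). At 0 h these were bbs1 in replicate 4 (67.9 CPM, others 22.6 to 36.7) and tmem237b in replicate 2 (99.3 CPM, others 142 to 161). At 24 hpl, replicate 3 stood high for ift172 (41.7 CPM, others 24.9 to 30.6) and for ift57 (71.4 CPM, others 32.7 to 47.1), and replicate 6 for rpgrip1l (46.6 CPM, others 27.6 to 31.1). At 36 hpl, ttc26 had 38.2 CPM in replicate 6 (others 25.7 to 29.6), and at 72 hpl, ift88 had 35.0 CPM in replicate 4 (others 50.1 to 57.2). At 5 dpl, the shallow replicate 2 had 28.9 CPM of bbs1 (others 14.1 to 19.6) and 54.1 CPM of tmem237b (others 125 to 158), and replicate 1 had 51.3 CPM of bbs5 (others 68.1 to 76.0). Replicate 6 stood high for arl3l2 at 10 dpl (634 CPM, others 181 to 258) and for arl3l1 at 14 dpl (651 CPM, others 521 to 550.1). Among naïve retinas, replicate 5 had 22.9 pseudo-counts of rpgrip1l (others 40.3 to 50.3).

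The effect of the lesion differed between the 2 experiments by the edgeR interaction test for bbs2 at 36 hpl, by 2.06 on the log2 scale (experiment 2 minus experiment 1), at 72 hpl by 2.13 and at 5 dpl by 2.36, and for kif3a at 5 dpl by -0.84. Over all genes, the interaction was called for 148 of 13075 genes at 36 hpl, 102 at 72 hpl and 134 at 5 dpl.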

How the results depend on the processing

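Over all alternatives, 2314 of 2408 values of named members kept their side of the threshold. A further 54 kept the direction but were no longer called, and 40 became called. Direction was compared only where the main or the alternative fit made a call, and there 0 reversed. The counts of lower members at 24, 36 and 72 hpl and 5 dpl moved by less than 1.5 times under every alternative run on both experiments together, and the 11 at 5 dpl became 7 with experiment 1 alone. The count of higher members at 24 hpl, 0 with edgeR, was 1 with limma on the pseudo-counts. At 10 dpl, 2 higher and 2 lower became 1 and 1 without the experiment term, and 0 were higher without 0 h replicate 5. At 14 dpl, the 1 higher member became 2 with DESeq2, 3 without 5 dpl replicate 2, and 0 both without the experiment term and without 0 h replicate 5, and the 4 lower became 1 without the experiment term. At 28 dpl, the 1 lower member became 6 with DESeq2, 4 with upper-quartile scaling, 4 without 5 dpl replicate 2, 3 without 0 h replicate 5 and 0 without the experiment term. Against naïve, the 11 members higher at 28 dpl became 5 with experiment 2 alone, and the 5 lower became 3 without the filter, 8 with experiment 1 alone and 3 with experiment 2 alone. The cause of these changes was not tested, except that single experiments hold fewer retinas. Scaling choices moved the median of all genes by less than 0.1 (log2).

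Replicate numbers are shared by all groups. After the group mean alone was taken out, 11 of 48 libraries were closest to their own number. After the group and experiment means were taken out, libraries of like number did not deviate together (correlations from -0.135 to 0.104). The numbers were therefore taken to mark the experiment and not pairs. With a replicate block, 16, 16 and 15 members were lower at 24, 36 and 72 hpl, 3 at 14 dpl, and 8 and 6 rose in the steps from 72 hpl to 5 dpl and from 5 to 10 dpl. Against naïve the block left 11 and 5 members at 28 dpl and 13 and 6 at 0 h. edgeR on whole reads against naïve was not run, because reads could not be recovered from the pseudo-counts (29.2% of 5-read genes lay within 1% of one ratio per library).

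An edgeR fit on simulated data (11500 genes) recovered 46% of 2-fold and 91% of 4-fold changes for 24 hpl against 0 h. It held the libraries of these groups only, no experiment effect was simulated, and recovery was not split by read level. These shares therefore do not give the power of the main fit, and the power for the thinly read members is not known.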

Other observations

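The balance between related members shifted over the time-course, given here as ratios of CPM within each retina. The files do not say how reads that fit both copies were counted, and a ratio shows unequal change, not which copy moved. The lowest, median and highest ratio of tmem237a to tmem237b were 8.71, 10.9 and 16.5 at 0 h, 0.480, 0.552 and 0.650 at 72 hpl and 7.91, 11.1 and 14.1 at 28 dpl, so that tmem237b had more reads than tmem237a at 72 hpl in every retina. For arl3l1 to arl3 they were 2.70, 3.16 and 4.20 at 0 h, 0.812, 1.05 and 1.47 at 36 hpl and 3.92, 4.72 and 5.53 at 14 dpl. For kif3cb to kif3a they were 0.0822, 0.22 and 0.337 at 0 h and 0.275, 0.458 and 0.539 at 5 dpl. No test was run on these ratios.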
